A study of Mus musculus with 12 samples.

Results

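The let-7 and miR-98 family was examined here in mouse skin and in squamous cell carcinomas that arose under chronic ultraviolet radiation (UVR). The family was taken as the 9 guide-arm (5p) miRNAs let-7a, let-7b, let-7c, let-7d, let-7e, let-7f, let-7g, let-7i and miR-98, chosen by name (mmu-let-7a-5p, mmu-let-7b-5p, mmu-let-7c-5p, mmu-let-7d-5p, mmu-let-7e-5p, mmu-let-7f-5p, mmu-let-7g-5p, mmu-let-7i-5p and mmu-mir-98-5p) from the 1251 miRNAs of the deposited small RNA sequencing table. All 9 were present in the table and all 9 were measured above its lowest value in every library. The 12 libraries came from C57Bl6 mice, either TAp63-/- (lacking the TA isoforms of the transcription factor p63) or wild type (WT). Of the cutaneous squamous cell carcinomas (SCC), 4 libraries were TAp63-/- and 2 were WT, all from mice aged over 35 weeks that received chronic UVR at 2.5 kJ per m2, given 3 times a week. Untreated dorsal skin gave 3 TAp63-/- and 3 WT libraries, from mice aged 4 weeks. Tumour, UVR exposure, age and the series of library titles changed together between SCC and skin, so they cannot be told apart. The labels do not say whether TAp63 was lacking in every cell or only in the epidermis, nor that each library is a separate mouse, although the source names all differ. The p-values below measure the spread between these libraries, some of which may be technical.

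MicroRNAs of the let-7 family were found in Caenorhabditis elegans as timers of development and are almost identical between worms and mammals. A miRNA is cut from a hairpin as a duplex. One strand, the guide arm, is loaded into an Argonaute protein and pairs with messenger RNAs mainly through its seed, while the other, the passenger arm, is mostly degraded. In mammals the let-7 guides repress Hmga2, Ras and Lin28 messenger RNAs, and the Lin28 proteins block the maturation of let-7 precursors. The family accumulates as tissues differentiate and is widely described as tumour suppressing.

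The 9 guide sequences, from RefSeq (build GRCm38.p6, the same assembly as the mm10 of the submitters' processing notes), are shown because the members differ in so few bases that the levels below depend on how reads were divided between them. Capitals mark the seed, bases 2 to 8 counted from 1 at the 5′ end.
let-7a-5p: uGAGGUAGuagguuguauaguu
let-7b-5p: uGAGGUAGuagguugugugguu
let-7c-5p: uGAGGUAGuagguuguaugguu
let-7d-5p: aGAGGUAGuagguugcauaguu
let-7e-5p: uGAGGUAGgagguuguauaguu
let-7f-5p: uGAGGUAGuagauuguauaguu
let-7g-5p: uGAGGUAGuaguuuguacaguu
let-7i-5p: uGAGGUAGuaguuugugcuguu
miR-98-5p: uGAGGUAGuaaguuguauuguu

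All 9 share 1 seed, which 11 of the 1679 mature mouse sequences in that table hold. Set against let-7a-5p, with the let-7a base first and positions counted from 1 at the 5′ end, let-7c-5p differs by A19G alone, let-7e-5p by U9G and let-7f-5p by G12A. let-7b-5p carries A17G and A19G, let-7d-5p carries U1A and U16C, and let-7g-5p carries G12U and U18C. miR-98-5p differs by G11A and A19U, and let-7i-5p by G12U, A17G, U18C and A19U. Over the 36 pairs of members the sequences differ at 1 to 6 positions, and 4 pairs differ at 1 position. How the authors' counting treated reads with a mismatch is not given in the sources used here, so levels of close pairs such as let-7a and let-7c are uncertain in how reads were split.

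The hairpins lie at several places in the genome, and 3 guides come from 2 hairpins each, so the level of let-7a, let-7c or let-7f cannot be assigned to one locus. On chromosome 13, Mirlet7d (chr13:48536012-48536114), Mirlet7f-1 (chr13:48537829-48537917) and Mirlet7a-1 (chr13:48538179-48538272) sit on the minus strand in an exon of the lincRNA 6720427I07Rik. On chromosome 15, Mirlet7c-2 (chr15:85706603-85706697) and Mirlet7b (chr15:85707319-85707403) lie 621 bases apart in an exon of Lncppara. Mirlet7c-1 (chr16:77599657-77599750) is in an intron of Mir99ahg, 656 bases from Mir99a. Mirlet7a-2 (chr9:41536716-41536811) is in an intron of the lncRNA 3110039I08Rik, 5211 bases from Mir100. Mirlet7e (chr17:17830352-17830444) is in an intron of Spaca6, 367 bases from Mir125a. Mirlet7f-2 (chrX:151912346-151912428) and Mir98 (chrX:151913214-151913321) lie 785 bases apart in an intron of Huwe1. Mirlet7g (chr9:106178840-106178927) is in an intron of Wdr82, and Mirlet7i (chr10:122985640-122985724) overlaps an exon of the pseudogene D630033A02Rik.

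The deposited values are log2 levels that appear to have been brought to a nearly common distribution. Their linear sums ran only from 6065014 to 6065621 across the 12 libraries, and the lowest value, the floor, is log2 of 10. Exact values also recurred between libraries, such as 17.4032 for let-7c-5p in TAp63-/- SCC 1 and for let-7f-5p in TAp63-/- skin 1. Levels were therefore read as relative positions within a library. The table gives no read counts, so the depth behind each value is unknown. Between 370 and 545 miRNAs per library were above the floor, so the distributions differed at the low end. Group means of this number were 485.5 in TAp63-/- SCC, 411 in WT SCC, 424.7 in TAp63-/- skin and 408.7 in WT skin. All 7 keratinocyte miRNAs listed (miR-205-5p, miR-203-3p and the miR-200 family) were above the floor in every library, with linear sums of 318000 to 635000 in SCC and 330000 to 457000 in skin. Summed striated muscle miRNAs were 4750 to 31500 in SCC and 66500 to 90100 in skin, without overlap. Summed melanocyte miRNAs (miR-204-5p and miR-211-5p) did not overlap either, at 88.4 to 1700 in SCC and 2330 to 6500 in skin. Summed endothelial miR-126 arms were 59900 to 92500 in SCC and 47400 to 63000 in skin. Summed leukocyte miRNAs were 16000 to 61600 in SCC and 18700 to 25800 in skin. For fibroblast miRNAs the sums overlapped, at 38500 to 67600 in SCC and 46200 to 68200 in skin. Those of red cell miRNAs overlapped too, at 17100 to 98200 in SCC and 35200 to 75000 in skin. In such bulk tissue, fewer cells of a type and less RNA per cell cannot be told apart, and the part of these cell mixtures in the results below was not tested.

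The family took a large share of every library. Its 9 guides made up 10.2%, 8.52%, 8.72% and 7.77% of all deposited linear values in the TAp63-/- SCC, and 7.21% and 8.06% in the WT SCC. In skin the share was 8.17%, 8.17% and 6.43% in TAp63-/- and 6.80%, 7.20% and 9.48% in WT. Group means were 8.80% ± 1.01 (SD, n = 4) in TAp63-/- SCC, 7.63% ± 0.603 (SD, n = 2) in WT SCC, 7.59% ± 1.0 (SD, n = 3) in TAp63-/- skin and 7.83% ± 1.45 (SD, n = 3) in WT skin. The ranges of the 4 groups overlapped, and differences in the summed family level were not tested.

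**Figure D1:**
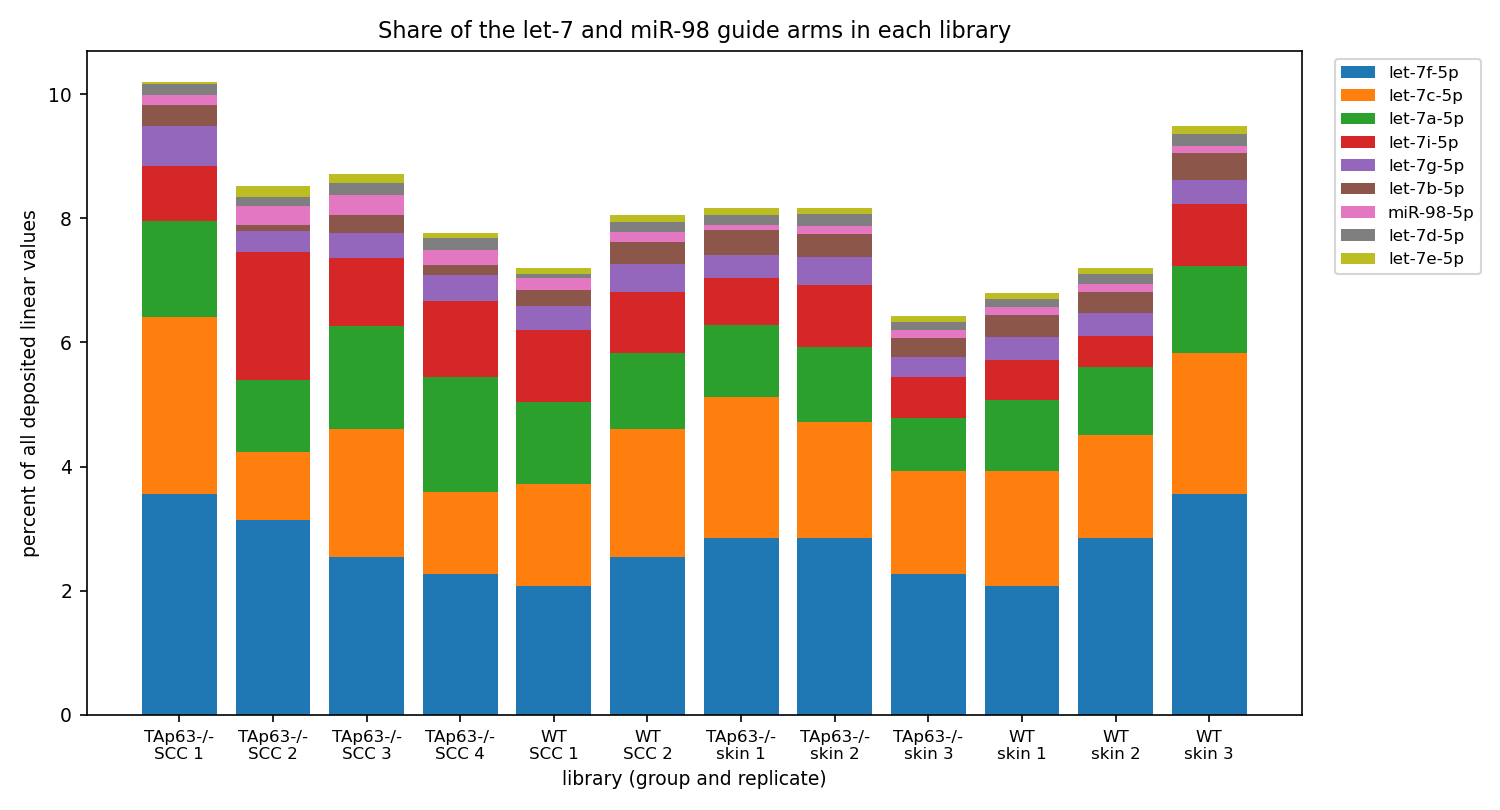
Share of the 9 let-7 and miR-98 guide arms in each of the 12 libraries, as a percentage of all deposited linear values, stacked by member. The total runs from 6.43% to 10.2%, SCC and skin overlap, and let-7f-5p is the largest segment in every library.

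A few members carried most of this level. let-7f-5p, let-7c-5p, let-7a-5p and let-7i-5p together made up 84.0% to 87.5% of the family sum in every library. let-7f-5p was the most abundant member in all 12 libraries and ranked between 7 and 12 among all miRNAs. let-7c-5p came second in 10 libraries, let-7i-5p in TAp63-/- SCC 2 and let-7a-5p in TAp63-/- SCC 4. let-7e-5p had the lowest group mean in all 4 groups, ranking between 57 and 106.

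The order of the group means was the same in both kinds of skin: let-7f, let-7c, let-7a, let-7i, let-7g, let-7b, let-7d, miR-98 and let-7e. Within skin, let-7f and let-7c overlapped, as did let-7g and let-7b, let-7d and miR-98, and miR-98 and let-7e. let-7a and let-7i overlapped in TAp63-/- skin but not in WT skin. In the tumours miR-98 stood higher in this order, at position 6 in TAp63-/- SCC and position 7 in WT SCC, against position 8 in TAp63-/- skin and in WT skin. The TAp63-/- SCC mean of miR-98 was 0.29 above that of let-7b on the log2 scale, although their ranges overlapped, while in WT skin the mean of let-7b was above it by more than 1 log2 unit.

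**Figure D2:**
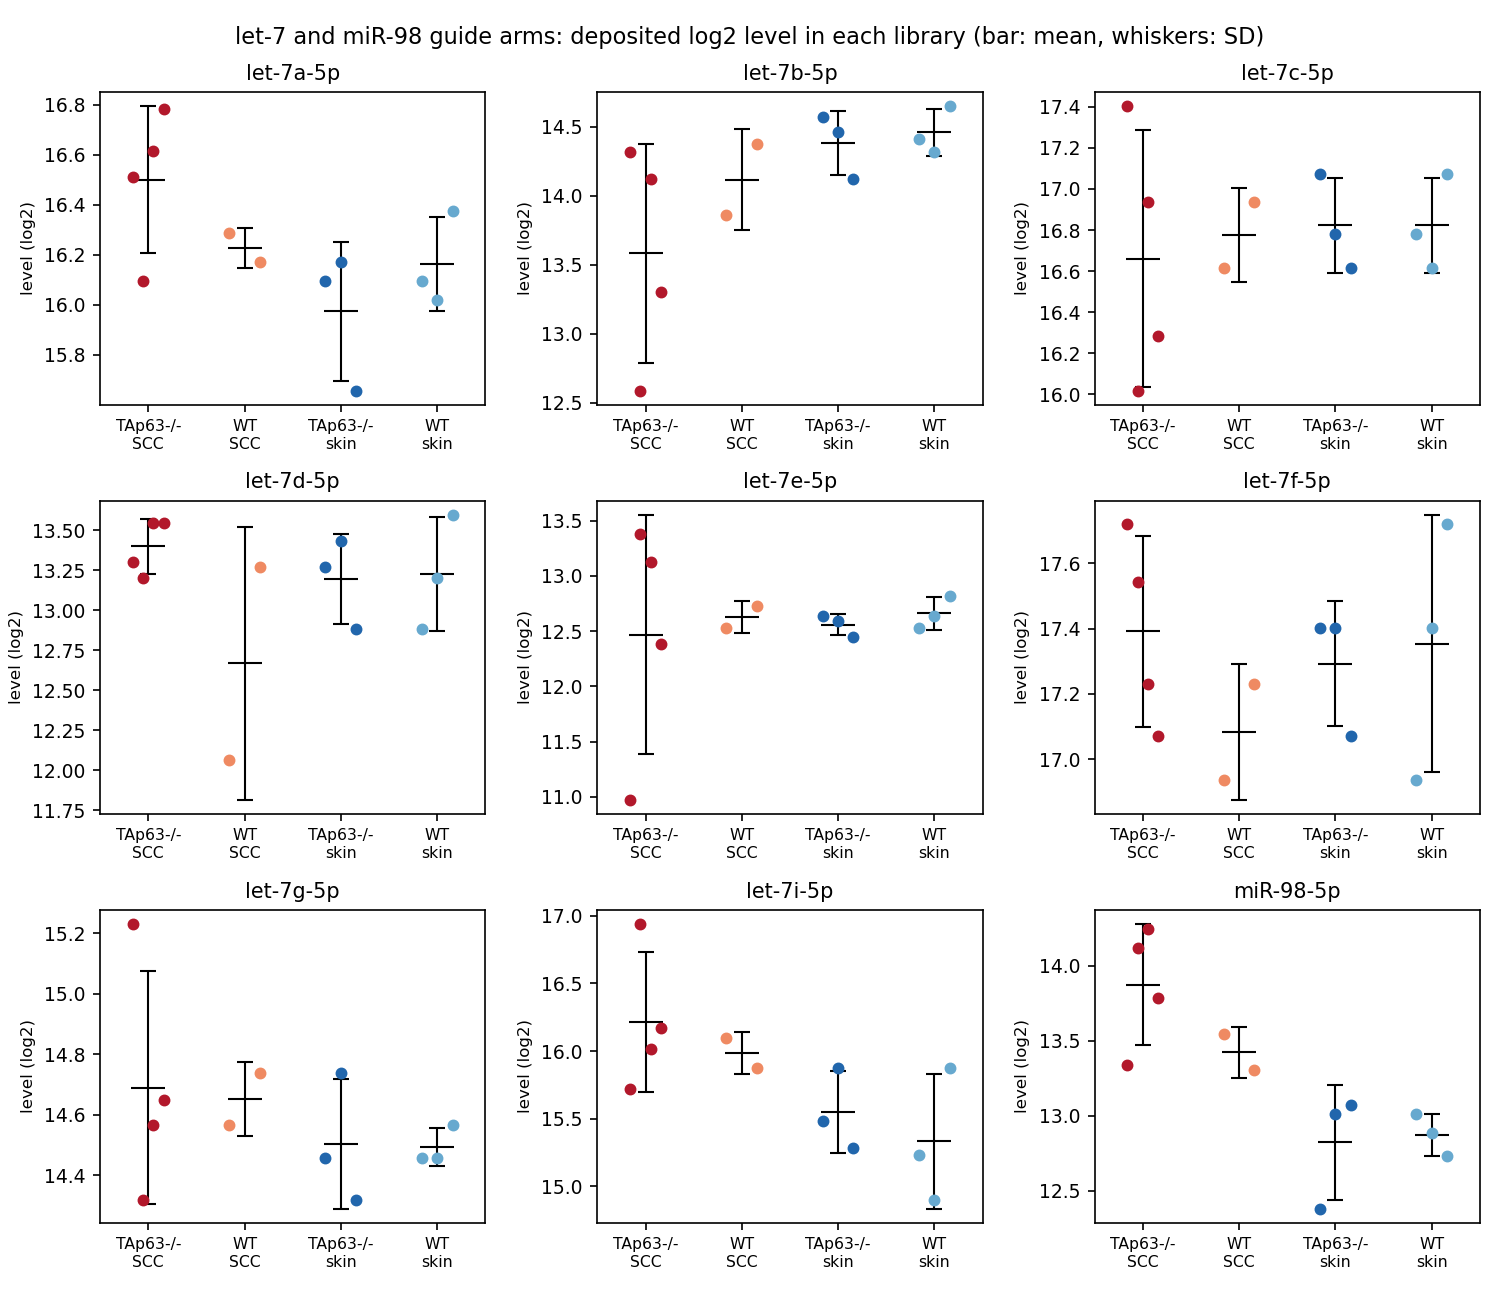
Deposited log2 level of each of the 9 guide arms, one panel per member, with a point for each library and the mean and SD of each of the 4 groups. miR-98-5p is above every skin library in all 6 SCC libraries, whereas let-7f-5p spans the same range, 16.94 to 17.72, in SCC and in skin.

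For SCC against skin, the 2 genotypes' effects were averaged with equal weight and tested with limma, with p-values adjusted by Benjamini-Hochberg over 544 miRNAs (those that exceeded the floor in 2 or more libraries). At an adjusted p under 0.05, 1 of 9 guides, miR-98-5p, was called higher in SCC and 0 were called lower. let-7i-5p lay just outside this threshold (log2 fold change 0.66, adjusted p = 0.0512). Guides that were not called were not shown to be unchanged. Over all miRNAs tested, 20.4% were higher and 21.5% were lower, 41.9% in either direction. At an unadjusted p under 0.05 there were 2 of 9. The share of all tested miRNAs at an unadjusted p under 0.05 was not computed here or below. In this comparison it is at least the 41.9% called, since an adjusted p is never below the unadjusted one. The median log2 fold change of the 9 members was -0.06, against 0.04 over all 544 miRNAs.

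miR-98-5p, whose hairpin neighbours that of let-7f-2 on the X chromosome, stood at 13.34, 14.12, 14.25 and 13.79 in the TAp63-/- SCC and at 13.55 and 13.30 in the WT SCC (log2 level). It stood at 12.38, 13.01 and 13.08 in TAp63-/- skin and at 13.01, 12.89 and 12.73 in WT skin. Every one of the 6 tumours was above every one of the 6 skin libraries. Such separation upward was found in 1 of 9 members and in 10.5% of all tested miRNAs. The averaged log2 fold change was 0.80 ± 0.21 (SE; 95% confidence interval 0.35 to 1.25), a 1.74-fold higher level in SCC (adjusted p = 0.00952). Its rank among all miRNAs was 43 to 59 in SCC and 64 to 73 in skin.

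let-7i-5p, transcribed from a hairpin of its own on chromosome 10, had 15.72, 16.94, 16.02 and 16.17 in the TAp63-/- SCC and 16.09 and 15.88 in the WT SCC (log2 level). It had 15.49, 15.88 and 15.28 in TAp63-/- skin and 15.23, 14.90 and 15.88 in WT skin. The highest value was in TAp63-/- SCC 2, and 4 of the 6 tumours were above every skin library. The log2 fold change was 0.66 ± 0.25 (SE; 95% confidence interval 0.12 to 1.20), with an adjusted p of 0.0512, just outside the threshold. Without TAp63-/- SCC 1, TAp63-/- skin 2 or WT skin 3, let-7i-5p was called, with adjusted p of 0.0315, 0.0498 and 0.0263, and it was also called under 2 other settings of the processing.

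let-7b-5p had 14.32, 12.59, 14.12 and 13.30 in the TAp63-/- SCC and 13.86 and 14.37 in the WT SCC (log2 level). It had 14.57, 14.46 and 14.12 in TAp63-/- skin and 14.41, 14.32 and 14.65 in WT skin. The levels overlapped, with 3 of the 6 tumours below every skin library. The averaged log2 fold change of -0.57 ± 0.29 (SE; 95% confidence interval -1.21 to 0.07) did not pass the test (adjusted p = 0.141). As a share of the family sum, let-7b-5p took 1.19% to 4.34% in the 6 SCC and 4.47% to 5.27% in the 6 skin libraries. These ranges did not overlap, though they nearly met, whereas those of the other members' shares did. By level, such separation downward was found in 11.6% of all tested miRNAs, and let-7b-5p was not among them. The shares were not tested, and each depends on the levels of the other members too.

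let-7a-5p had 16.51, 16.09, 16.62 and 16.78 in the TAp63-/- SCC and 16.29 and 16.17 in the WT SCC (log2 level). It had 16.09, 16.17 and 15.66 in TAp63-/- skin and 16.09, 16.02 and 16.37 in WT skin. The groups overlapped, and the averaged log2 fold change was 0.30 ± 0.17 (SE; 95% confidence interval -0.07 to 0.67; adjusted p = 0.187). The other 5 members had averaged log2 fold changes between -0.18 ± 0.23 for let-7d-5p and 0.17 ± 0.18 for let-7g-5p, with adjusted p from 0.476 to 0.893. For the most abundant guide, let-7f-5p, the interval of the log2 fold change was -0.49 to 0.32. A p that misses the threshold does not show that levels were the same. Scaling by median ratios moved the median of all tested miRNAs in this comparison to 0.16, and under it the log2 fold changes of let-7c, let-7e and let-7f changed sign to 0.02, 0.06 and 0.04.

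**Figure D3:**
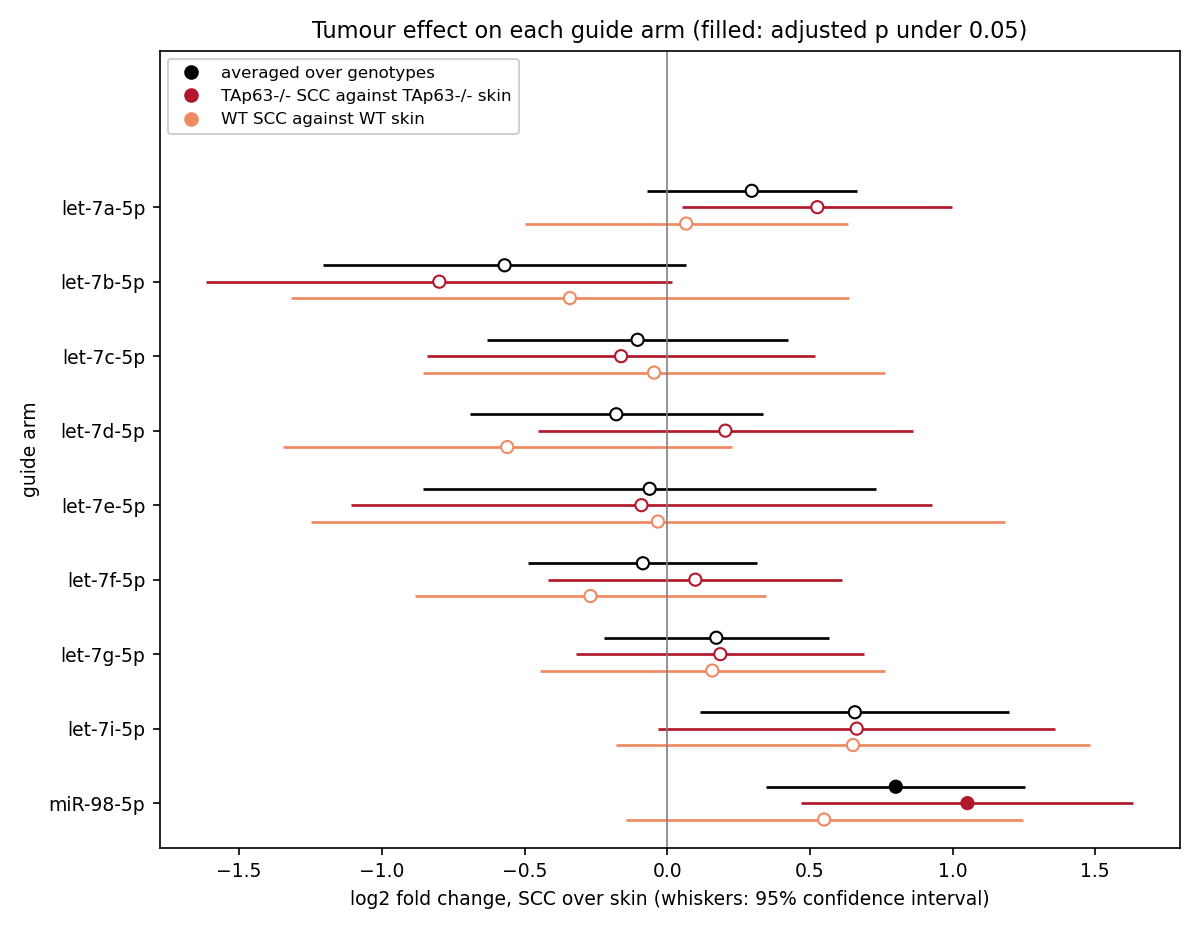
Log2 fold change of SCC over skin for each guide arm, averaged over genotypes and within TAp63-/- and WT mice, with 95% confidence intervals from limma and filled symbols for an adjusted p under 0.05. miR-98-5p is the filled symbol in the averaged comparison (0.80) and in TAp63-/- mice (1.05), and no symbol is filled for WT mice.

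Within TAp63-/- mice, SCC against skin again gave 1 of 9 guides higher and 0 lower, against 16% higher, 18.2% lower and 34.2% in either direction over all tested miRNAs. miR-98-5p averaged 13.87 ± 0.40 in SCC (SD, n = 4) and 12.82 ± 0.38 in skin (SD, n = 3), a log2 fold change of 1.05 ± 0.26 (SE; 95% confidence interval 0.47 to 1.63), 2.07-fold. Its adjusted p by limma was 0.0104, and without TAp63-/- skin 1, the lowest of the libraries for this miRNA, the log2 fold change was 0.83 with an adjusted p of 0.0545. let-7a-5p had a log2 fold change of 0.53 ± 0.22 (adjusted p = 0.0823) and was called without TAp63-/- SCC 2 (0.66, adjusted p = 0.0288). let-7b-5p had -0.80 ± 0.37 (adjusted p = 0.12) and was called lower without TAp63-/- SCC 1 (-1.04, adjusted p = 0.0448). The median log2 fold change of the members was 0.19, against 0.05 over all tested miRNAs.

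Within WT mice, where 2 tumours were set against 3 skins, 0 of 9 guides passed limma's test in either direction and 0 of 9 had an unadjusted p under 0.05. Over all tested miRNAs 8.82% were called higher and 9.38% lower at the adjusted threshold. miR-98-5p averaged 13.42 ± 0.17 in WT SCC (SD, n = 2) and 12.88 ± 0.14 in WT skin (SD, n = 3). Its log2 fold change was 0.55 ± 0.32 (95% confidence interval -0.15 to 1.25; adjusted p = 0.273). let-7i-5p had 0.65 ± 0.38 (adjusted p = 0.274), close in size to the 0.66 ± 0.32 in TAp63-/- mice (adjusted p = 0.127). let-7d-5p had -0.56 ± 0.36 (adjusted p = 0.322). Without WT SCC 2 it was called lower, at -1.16 with an adjusted p of 0.04, which then rested on WT SCC 1 alone.

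No difference between genotypes was detected for any member. In skin, TAp63-/- against WT gave 0 of 9 members called by limma, with 0% of all tested miRNAs called and 0 of 9 at an unadjusted p under 0.05. The log2 fold changes ran from -0.19 ± 0.23 for let-7a-5p to 0.21 ± 0.34 for let-7i-5p. In the tumours, TAp63-/- SCC against WT SCC also gave 0 of 9, with 0.184% of all tested miRNAs called lower and 0% higher, and 0 of 9 members had an unadjusted p under 0.05. The member farthest from 0 was let-7d-5p, at 13.30, 13.20, 13.55 and 13.55 in TAp63-/- SCC and at 12.07 and 13.27 in WT SCC (log2 level). WT SCC 1 was the low library, and WT SCC 2 lay within the TAp63-/- range. The log2 fold change was 0.73 ± 0.34 (95% confidence interval -0.01 to 1.48; adjusted p = 0.538).

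The difference between the 2 tumour effects (TAp63-/- minus WT) was tested as an interaction term. It passed for 0 of 9 members and for 0% of all tested miRNAs, with 0 of 9 members at an unadjusted p under 0.05. For miR-98-5p this difference was 0.50 ± 0.41 on the log2 scale (adjusted p = 0.831), so a tumour effect called in TAp63-/- mice and not in WT mice was not shown to differ between them. Across members it ran from -0.46 ± 0.58 for let-7b-5p to 0.76 ± 0.47 for let-7d-5p.

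Most members had a wider range among tumours than among skins. For 7 of the 9 guides the range over the 6 SCC was wider than over the 6 skin libraries, and for let-7f-5p the ranges were equal. How often this held over all tested miRNAs was not computed, so it cannot be called a trait of this family. let-7e-5p spanned 2.41 log2 units in SCC and 0.37 in skin. It had 10.98, 13.38, 13.13 and 12.38 in the TAp63-/- SCC and 12.53 and 12.73 in the WT SCC, while the 6 skin libraries lay between 12.45 and 12.82 (log2 level). TAp63-/- SCC 1 was the low library. In that tumour the let-7e passenger arm was at the floor, and miR-99b-5p and miR-125a-5p, made from the same cluster on chromosome 17, were at their lowest of all 12 libraries, 14.65 and 12.82. TAp63-/- SCC 2 had the lowest let-7b-5p (12.59), let-7c-5p (16.02) and let-7b-3p (5.66) of the 12 libraries, from hairpins that include the chromosome 15 pair. It also had the lowest miR-125b-5p (13.13), which comes from hairpins on chromosomes 9 and 16. Mirlet7c-1, a source of let-7c-5p, is on chromosome 16 too. Level with TAp63-/- skin 3, the same tumour had the lowest let-7g-5p (14.32), from chromosome 9. These patterns were seen in the values and not tested.

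Passenger (3p) arms come from the same hairpins as the guides and were present for 12 rows, of which 11 were tested. let-7a-2-3p was at the floor in all 12 libraries. The rows of let-7a-1-3p and let-7c-2-3p held the same values throughout and have the same mature sequence, so they are 1 measurement. In SCC against skin averaged over genotypes, 4 of the 11 rows were higher and 0 were lower, with the identical rows counted separately. Over all tested miRNAs 20.4% were higher and 21.5% lower. The 4 were miR-98-3p, let-7f-1-3p, let-7d-3p and let-7i-3p, shown here because they are the arms that passed the test, with capitals again marking bases 2 to 8.
miR-98-3p: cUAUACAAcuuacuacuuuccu
let-7f-1-3p: cUAUACAAucuauugccuuccc
let-7d-3p: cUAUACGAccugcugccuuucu
let-7i-3p: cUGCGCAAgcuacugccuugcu

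miR-98-3p had 6.44, 7.00, 5.99 and 7.56 in the TAp63-/- SCC and 6.69 and 6.58 in the WT SCC (log2 level). It had 3.32, 3.91 and 3.92 in TAp63-/- skin and 5.68, 4.50 and 3.32 in WT skin, where 3.32 is the floor. All 6 tumours were above all 6 skin libraries. The averaged log2 fold change was 2.58 ± 0.43 (SE), 5.99-fold (adjusted p = 6.7e-04), which depends on the value given to the 2 skin libraries at the floor. It was called in TAp63-/- mice (3.03 ± 0.55, adjusted p = 0.00188) and in WT mice (2.14 ± 0.65, adjusted p = 0.043), where the call was lost when any of 7 of the 12 libraries was left out, at adjusted p up to 0.226. Both arms of the miR-98 hairpin were higher in SCC in the averaged comparison, and the guide remained far above the passenger arm, by 6.23 to 8.26 log2 units in SCC and by 7.33 to 9.41 in skin.

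let-7d-3p is the most abundant passenger arm of the family. It had 10.92, 10.75, 10.92 and 11.40 in the TAp63-/- SCC and 10.44 and 10.69 in the WT SCC (log2 level). It had 10.40, 9.92 and 9.90 in TAp63-/- skin and 10.30, 10.22 and 9.94 in WT skin. The 6 tumours did not overlap with the 6 skins, and the averaged log2 fold change was 0.67 ± 0.19 (SE; adjusted p = 0.0146). The guide of the same hairpin, let-7d-5p, had -0.18 ± 0.23 in the same comparison (adjusted p = 0.568). The difference between the arms was not tested, and within a library the guide exceeded the passenger arm by 1.63 to 2.63 log2 units in SCC and by 2.59 to 3.65 in skin.

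let-7f-1-3p lay near the floor, at 3.81, 4.26, 4.75 and 4.25 in the TAp63-/- SCC and 4.52 and 4.81 in the WT SCC (log2 level). It lay at 3.32, 3.59 and 3.78 in TAp63-/- skin and at 3.32, 3.98 and 3.32 in WT skin. In 5 of the 6 tumours it was above every skin library, and 3 skin libraries were at the floor, so the log2 fold change of 0.91 ± 0.23 (SE; adjusted p = 0.00778) depends on the floor. let-7i-3p had 7.30, 7.79, 6.82 and 7.53 in the TAp63-/- SCC and 7.22 and 7.60 in the WT SCC, with 7.58, 7.05 and 6.87 in TAp63-/- skin and 6.02, 6.25 and 6.49 in WT skin. TAp63-/- skin overlapped with the tumours and WT skin did not. Its averaged log2 fold change was 0.67 ± 0.24 (SE; adjusted p = 0.0415), and this call was lost when any of 10 of the 12 libraries was left out, at adjusted p up to 0.128. The other 7 passenger rows tested, which include the identical let-7a-1-3p and let-7c-2-3p, did not pass. Within WT mice let-7f-1-3p (1.12 ± 0.35, adjusted p = 0.0447) and let-7i-3p (1.16 ± 0.37, adjusted p = 0.0499) were called, and each call was lost when any of 9 of the 12 libraries was left out, at adjusted p up to 0.143 and 0.187. Within TAp63-/- mice let-7d-3p was called (0.92 ± 0.24, adjusted p = 0.0122), but not without TAp63-/- skin 2 or TAp63-/- skin 3 (adjusted p = 0.0537 and 0.0506).

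**Figure D4:**
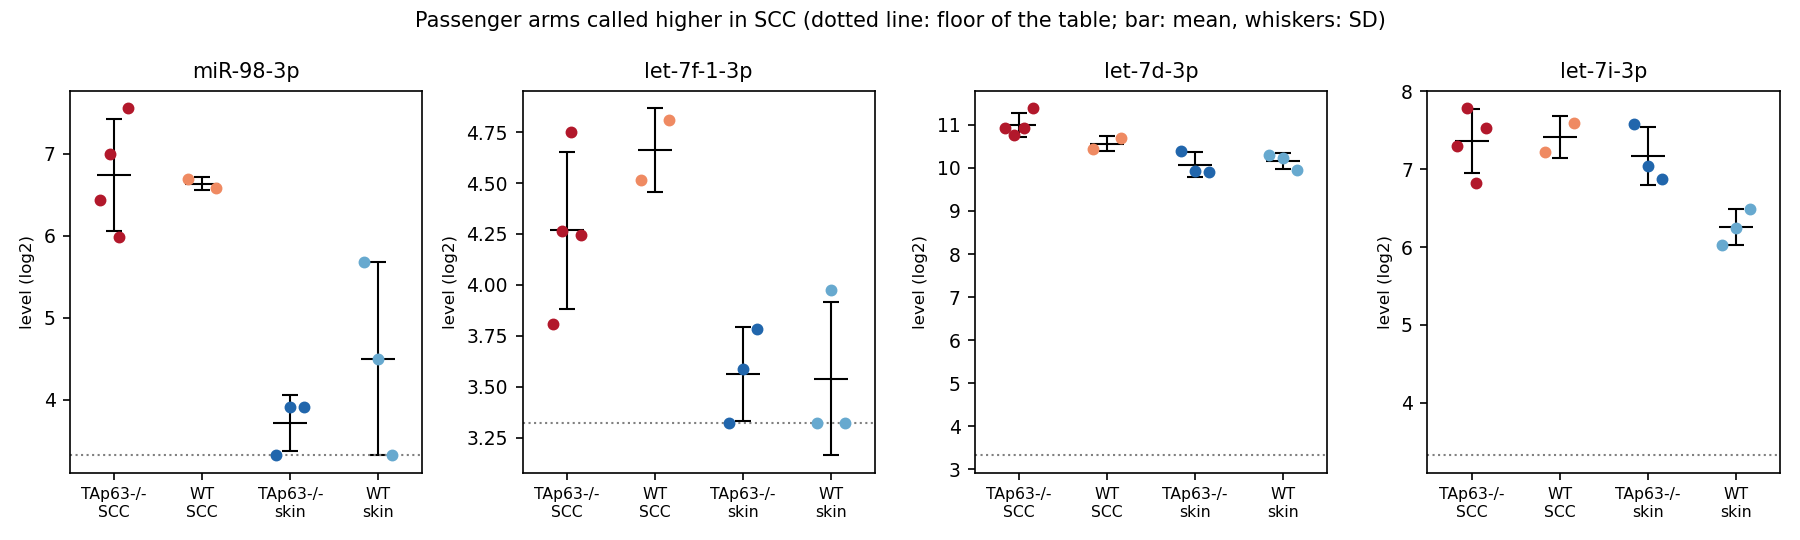
Deposited log2 level of the 4 passenger arms called higher in SCC, with a point per library, the mean and SD of each group, and a dotted line at the floor of the table (3.32). miR-98-3p and let-7d-3p separate the 6 SCC from the 6 skin libraries, whereas let-7i-3p in TAp63-/- skin overlaps with SCC.

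Several let-7 hairpins share a cluster with hairpins of the miR-99, miR-100 and miR-125 families, whose guides have other seeds. Of these 5 partner guides, 0 were higher and 2 were lower in SCC averaged over genotypes, beside 20.4% higher and 21.5% lower over all tested miRNAs. miR-100-5p lies in the cluster of let-7a-2 and miR-99a-5p in that of let-7c-1, and they differ from each other at a single base.
miR-100-5p: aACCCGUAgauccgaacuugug
miR-99a-5p: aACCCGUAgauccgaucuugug

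miR-100-5p had a log2 fold change of -3.14 ± 0.25 (SE; adjusted p = 8.0e-06), while let-7a-5p had 0.30 ± 0.17. miR-99a-5p had -2.68 ± 0.41 (SE; adjusted p = 4.2e-04), while let-7c-5p had -0.10 ± 0.24 (adjusted p = 0.744). Within each library, let-7a-5p exceeded miR-100-5p by 3.10 to 5.33 log2 units in SCC, against -0.15 to 1.04 in skin. let-7c-5p exceeded miR-99a-5p by 3.49 to 5.54 log2 units in SCC, against 0.84 to 2.71 in skin. Neither pair of ranges overlapped, but the levels of miR-100-5p and miR-99a-5p alone did not overlap between SCC and skin either. Such separation downward was found in 11.6% of all tested miRNAs. let-7a and let-7c guides also come from Mirlet7a-1 and Mirlet7c-2, which lie outside these clusters, so the levels do not show what the clustered let-7 hairpins did. miR-125b-5p, the third partner in the clusters of let-7a-2 and of let-7c-1, did not pass the test (-0.20 ± 0.30, adjusted p = 0.629). It comes from a hairpin in each of these clusters, so its level cannot be assigned to either. let-7e-5p comes from 1 hairpin and did not pass the test. Its cluster partners miR-99b-5p (-0.89 ± 0.40, adjusted p = 0.101) and miR-125a-5p (-0.36 ± 0.31, adjusted p = 0.388) did not pass either.

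**Figure D5:**
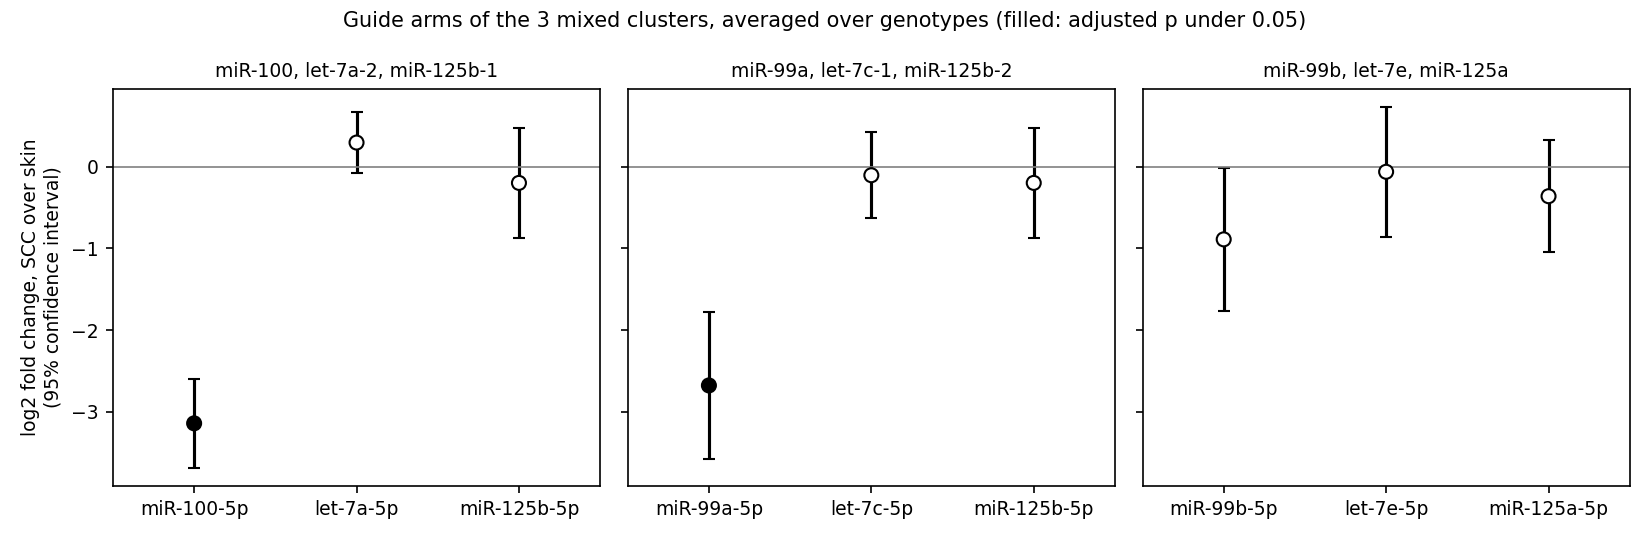
Log2 fold change of SCC over skin, averaged over genotypes, for let-7 guides and the partner guides of their 3 mixed clusters, with 95% confidence intervals and filled symbols for an adjusted p under 0.05. miR-100-5p (-3.14) and miR-99a-5p (-2.68) are filled and below 0, while let-7a-5p (0.30), let-7c-5p (-0.10) and let-7e-5p (-0.06) are not filled.

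Beyond the 9 guides, 2 other rows hold the same seed. let-7k was near the floor, at 3.32 to 3.84 in the 6 SCC and 3.32 to 4.82 in the 6 skin libraries (log2 level), with an averaged log2 fold change of -0.72 ± 0.26 (SE; adjusted p = 0.0415). That call was lost when any of 8 of the 12 libraries was left out, at adjusted p up to 0.163. miR-1961 was at the floor in 10 of the 12 libraries. Among 209 other well-measured miRNAs, the profile most like that of the summed family was that of miR-16-5p, at a root mean square difference of 0.176 log2 units over the 12 libraries. Next came miR-27a-5p (0.198), miR-30c-5p (0.206), miR-15a-5p (0.210) and miR-744-5p (0.215), against a median of 0.727 over the 209. The summed family varied little between libraries, so any miRNA that varies little gives a small difference. These values therefore do not show that the 5 miRNAs rise and fall with the family.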

How the data were processed

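Small RNA sequencing of total RNA from 12 frozen tissues was analysed as 1 table of log2 values that the authors deposited. No count was given. The submitters' processing notes name the mm10 build; no aligner, counter or normalization is named in the sources used here. The log2 levels deposited appear to have been quantile normalized between libraries, with a floor at log2 of 10. This was judged from nearly equal linear sums, which other scalings also give, and from exact values that recur between libraries. A change that moved most miRNAs would then not be seen. Of 1251 rows, 647 were at the floor throughout and 544 were above it in at least 2 libraries and were tested. limma 3.58.1 (R 4.3.3) fitted a mean per group over all 12 libraries (8 residual degrees of freedom), with trended, robust variances and Benjamini-Hochberg adjustment over the 544, called at 0.05. The code was tested on simulated data. Python 3.11.15 was used for descriptions. Named miRNAs are the 9 members, their 3p rows, 5 cluster partners, rows with the same seed, and the 5 nearest profiles among the upper 40% by mean level. Members and lists were chosen with earlier results of these data known. Sequences and hairpin positions are from RefSeq, and the genes that overlap the hairpins are from GENCODE. No label gives a batch, and no replicate numbers pair the libraries.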

Additional observations from a re-analysis of the deposited data

How the results depend on the processing

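miR-98-5p stayed called higher in the averaged comparison under all 19 alternatives (log2 fold change 0.69 to 0.92, adjusted p 0.00316 to 0.0432), as did miR-98-3p (2.01 to 2.88), let-7d-3p (0.60 to 0.79) and let-7f-1-3p (0.56 to 1.03). The count of members higher in SCC was 1 and became 2 both with a filter of 6 libraries above the floor and with median-ratio scaling, where let-7i-5p was added (adjusted p = 0.0413 and 0.0249). Leaving out 1 library gave 1 to 2. Within TAp63-/- mice that count was 2 with median-ratio scaling, through let-7a-5p (0.62, adjusted p = 0.0425), and 0 to 2 on leaving out 1 library, while the count lower was 0 to 1. Within WT mice the count lower was 0 to 1. With the 5 most abundant other miRNAs out of the total, the family share was 15.3% in TAp63-/- SCC, 14.0% in WT SCC, 12.5% in TAp63-/- skin and 13.4% in WT skin.

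Of 728 recomputed log2 fold changes of single members, 31 changed sign and 0 of these were called; the cause was not tested. With median-ratio scaling these were let-7c, let-7e and let-7f in the averaged comparison (0.0164, 0.0587 and 0.0351), let-7e in TAp63-/- mice (0.0024), let-7c and let-7e in WT mice (0.1016 and 0.115) and let-7d between skins (0.0118). With library quality weights they were let-7c and let-7e in WT mice (0.0154 and 0.0036), and miR-98 and let-7d between skins (0.0366 and 0.1141). Without the 5 most abundant miRNAs, let-7c in WT mice was 0.0564. Leaving out 1 library, the averaged log2 fold change ran from -0.2276 to 0.0032 for let-7c, -0.4799 to 0.1228 for let-7d, -0.2144 to 0.1872 for let-7e and -0.1893 to 0.0064 for let-7f. In TAp63-/- mice it ran from -0.4091 to 0.0526 for let-7c, -0.396 to 0.4072 for let-7e and -0.0122 to 0.2051 for let-7f. In WT mice it ran from -0.0054 to 0.1727 for let-7a, -0.2069 to 0.1147 for let-7c, -1.1634 to 0.042 for let-7d and -0.1332 to 0.0678 for let-7e. Between TAp63-/- and WT skin it ran from -0.0049 to 0.4857 for let-7i, -0.1794 to 0.1676 for miR-98 and -0.2037 to 0.1511 for let-7d.

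No paired analysis was possible because the source names of all 12 libraries differ and replicate numbers were given in accession order. With 2 WT tumours, leaving 1 out assumes that the other varies like the remaining groups. The depth of the libraries is unknown, values near the floor are compressed, and a shift common to most miRNAs would not be seen.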

Other observations

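A row named let-7j was outside the seed family, since its seed differs from that of the 9 guides. It had 11.54 in WT skin 1 and 7.15 in TAp63-/- skin 3, and at most 5.87 in the other 10 libraries (log2 level). For SCC against skin averaged over genotypes its log2 fold change was -1.12 ± 1.36 (SE), which did not pass limma's test (adjusted p = 0.539).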
